A study of Mus musculus with 5 samples.

Results

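The mitochondrial genome transcripts were all gene symbols beginning with mt- in the deposited counts. There were 37 of them among 55291 gene symbols, made up of 13 protein genes, 2 rRNA genes and 22 tRNA genes. The libraries were made from RNA of mouse bone marrow, labelled as monocytes, with 2 Tet2-mutant libraries (replicates 2 and 3, whose titles carry the letters HR) and 3 wild-type libraries (replicates 1, 2 and 3). The protein Tet2 converts the methylated cytosines of DNA to oxidised forms. The kind of Tet2 mutation, the meaning of HR, the age and strain of the mice, the way the cells were isolated and whether each library came from its own animal are not given in these sources, and no treatment is named for either genotype. The p-values below therefore measure only the spread between these libraries, which may be technical.

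Mitochondrial DNA is a small circle present in many copies per cell. Both of its strands are transcribed as long precursor RNAs, in which tRNAs stand between most of the other genes, and cutting at the tRNA ends releases the mRNAs and rRNAs. The 13 proteins are core subunits of respiratory complexes I, III and IV and of ATP synthase, and all other subunits, the mitochondrial RNA polymerase and the proteins of the mitochondrial ribosome come from nuclear genes. Most mitochondrial mRNAs carry short poly(A) tails, whereas the rRNAs have at most a few added bases and tRNAs end in CCA. The libraries were made with an mRNA kit, so rRNA and tRNA counts measure how much of these RNAs was carried through that kit and not their abundance in the cell.

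The summed counts were 17459808 and 60508381 in Tet2-mutant replicates 2 and 3, against 53789308 to 72414875 in the wild-type libraries. Levels are given as CPM (counts per 1000000 counts) after TMM scaling. TMM corrects each library total by the mean log ratio of its genes to a reference library, with extreme ratios and levels trimmed. The TMM factors were 0.723 and 0.896 in the Tet2-mutant libraries and 1.14 to 1.17 in the wild-type libraries, so the choice of scaling moves the comparison between genotypes and is named where it changes a result. Tet2 RNA itself was at 5.31 and 15.6 CPM in replicates 2 and 3 of the Tet2 mutant, against 11.9, 9.77 and 10.6 CPM in replicates 1, 2 and 3 of the wild type, and did not separate the genotypes (edgeR quasi-likelihood test, adjusted p = 0.966). All 10 monocyte markers listed were detected in the files, with summed levels of 29271 and 19075 CPM in the Tet2-mutant libraries and 13209 to 14709 CPM in the wild-type libraries. Most of each sum came from Lyz2, a lysozyme of monocytes and other myeloid cells. Lyz2 averaged 22384 ± 6388 CPM in the Tet2-mutant libraries and 12379 ± 793 CPM in the wild-type libraries (SD, n = 2 and 3). Ly6c2, a surface protein of classical monocytes, averaged 274 ± 155 CPM in the Tet2-mutant libraries and 420 ± 75.4 CPM in the wild-type libraries (SD, n = 2 and 3). These are bulk libraries, in which a different number of cells of a type and a different amount of RNA per cell cannot be told apart. The libraries also differed in sex-linked RNA. Xist, the RNA of the inactive X chromosome, was at 27.4 and 21.1 CPM in the Tet2-mutant libraries, against 0.188, 0.179 and 32.3 CPM in replicates 1, 2 and 3 of the wild type, and Ddx3y, a Y-linked gene, was at 14.7 and 1.22 CPM in the Tet2-mutant libraries, against 71.4, 69.1 and 0.163 CPM. Wild-type replicates 1 and 2 thus stood apart from the other 3 libraries, and no sex is given in the labels. Those 3 were not alike either, since Tet2-mutant replicate 2 held both RNAs, with 346 counts of Xist and 186 counts of Ddx3y. Markers of other cells were also present and are given with the last comparison.

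The first feature of the mitochondrial counts was a block of protein genes with almost no counts in either genotype. A row of 7 adjacent pseudogenes on chromosome 1, listed in GENCODE M21 (GRCm38, the mouse build also called mm10), hold near-identical copies of that block. They lie on the minus strand between positions 24611535 and 24616197 and face mitochondrial positions 6381 to 11042, a stretch of 4662 bases, in the same order and with the same spacing to within 1 base. The copies of mt-Co2, mt-Co3, mt-Atp6, mt-Nd4l and mt-Nd4 (Gm28661, Gm28437, Gm10925, Gm10222 and Gm28439) were identical to the mitochondrial sequence over the aligned bases. The copy of mt-Nd3, Gm28438, differed at 1 of 345 bases (T3C, counted from the first base of mt-Nd3). Gm29216, which was aligned to the last 492 bases of mt-Co1, differed at 6. These 6 all lay at the start of the aligned part, from T1056A to A1066T, and the rest of it was identical. On chromosome 2 the copies had diverged further, by 17 of 510 bases in Gm13339 (mt-Nd2) and 37 of 1545 bases in Gm13340 (mt-Co1). The first 60 bases of mt-Nd3 and its chromosome 1 copy, and 60 bases of mt-Nd2 and its chromosome 2 copy, are shown to set a copy that hardly differs beside one that does, with capitals at the bases that differ (GENCODE M21 transcripts, 5′ to 3′).
mt-Nd3, chrM:9459-9518, plus strand: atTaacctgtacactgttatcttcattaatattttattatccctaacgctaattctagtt
Gm28438, chr1:24613060-24613119, minus strand: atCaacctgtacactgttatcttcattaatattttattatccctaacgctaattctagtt
mt-Nd2, chrM:4462-4521, plus strand: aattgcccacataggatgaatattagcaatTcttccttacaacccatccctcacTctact
Gm13339, chr2:22590454-22590513, minus strand: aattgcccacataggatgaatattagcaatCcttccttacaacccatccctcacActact

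Exactly 6 protein genes lie wholly inside the copied stretch, and these were the 6 with no usable counts. They encode the complex IV subunits mt-Co2 and mt-Co3, the ATP synthase subunits mt-Atp6 and mt-Atp8 and the complex I subunits mt-Nd3 and mt-Nd4l. Over all 5 libraries they held 2 counts, 1 of mt-Atp6 in Tet2-mutant replicate 3 and 1 of mt-Co3 in wild-type replicate 1. The 5 tRNA genes inside the stretch (mt-Ts1, mt-Td, mt-Tk, mt-Tg and mt-Tr) held 0 counts. To measure the likeness per gene, all stretches of 50 bases in each gene were looked up in the transcripts of nuclear genes. The share of such stretches that occurred identically in a nuclear gene was 100% for mt-Co2, 99.9% for mt-Co3, 99.5% for mt-Atp6, 98.8% for mt-Nd4l and 98.0% for mt-Nd3. For mt-Atp8, which has no annotated nuclear copy of its own and whose place falls between the copies of mt-Co2 and mt-Atp6, it was 0%. The genome sequence between annotated pseudogenes was not used here.

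The 7 protein genes with counts lie outside the stretch or reach beyond it. The share of identical stretches was 62.2% for mt-Nd4 and 51.1% for mt-Co1, which are partly copied, 8.19% for mt-Nd2 and 7.61% for mt-Nd5. For mt-Nd1, mt-Nd6 and mt-Cytb it was 0%. The chromosome 1 copies themselves received few counts, 0 to 41 per gene and library and 394 in all, with 20 and 69 in Tet2-mutant replicates 2 and 3 and 74, 159 and 72 in wild-type replicates 1, 2 and 3. The handling of reads that align to more than 1 place is not given in the labels, and the part of these copies in the low counts was not tested. Nothing in these counts gives the level of the 6 genes in either genotype.

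**Figure D1:**
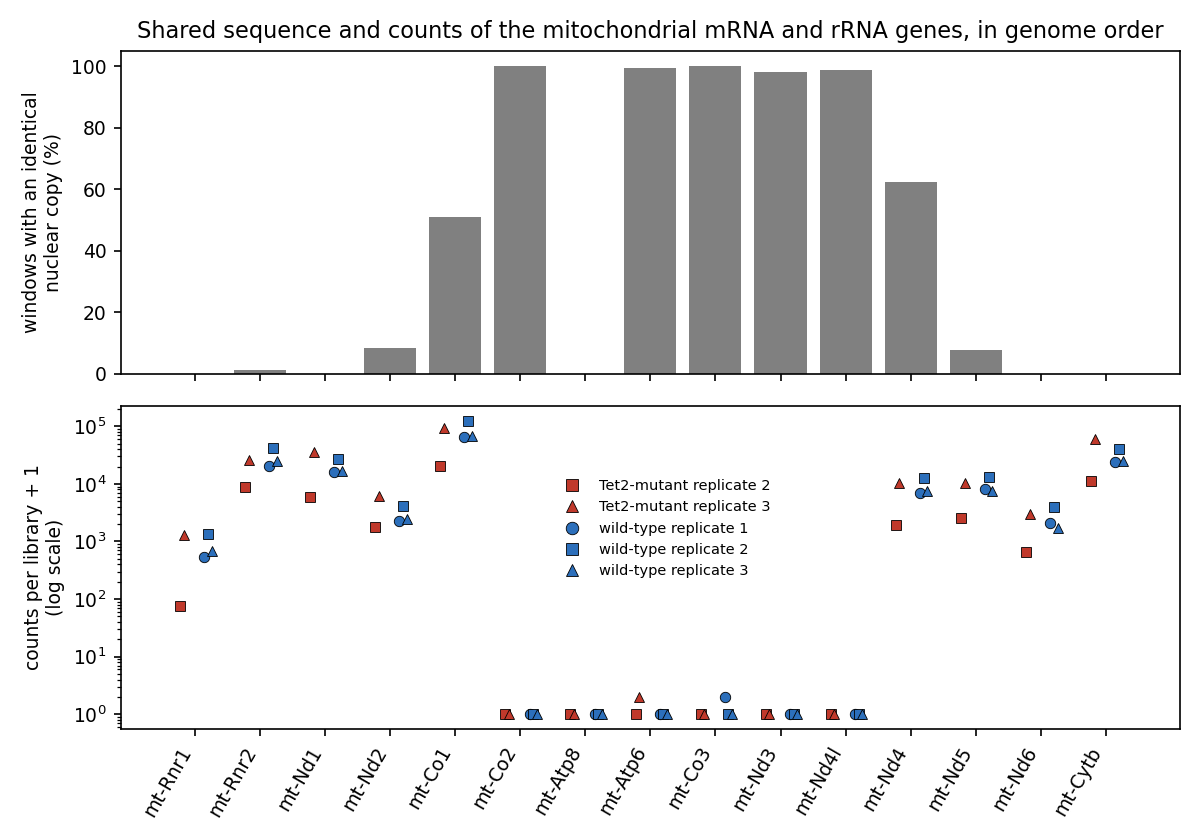
Share of the 50-base stretches of each mitochondrial protein and rRNA gene found identically in transcripts of nuclear genes (upper panel, percent) and counts per library (lower panel, log axis), with genes in genome order and points for the 2 Tet2-mutant and 3 wild-type libraries. The 6 genes inside the copied stretch have at most 1 count in a library, and mt-Atp8 is the one of these with a share of 0%, while the 9 genes that lie outside the stretch or reach beyond it have counts in every library.

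Measured mitochondrial RNA made up under 1% of all counts in every library. Protein genes took 0.257% and 0.360% of counts in Tet2-mutant replicates 2 and 3, against 0.196%, 0.313% and 0.241% in wild-type replicates 1, 2 and 3. Their means were 0.308 ± 0.0726% in the Tet2-mutant libraries and 0.250 ± 0.0593% in the wild-type libraries (SD, n = 2 and 3), a ratio of 1.23, and the genotypes overlapped. The rRNAs took 0.0513% and 0.0447% in the Tet2-mutant libraries, against 0.0333%, 0.0591% and 0.0477% in the wild-type libraries, and the genotypes again overlapped. Since 6 protein genes are all but missing, these shares understate the mitochondrial content by an amount that these files do not give.

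After TMM scaling, all 7 counted protein genes were higher in both Tet2-mutant libraries than in any wild-type library, and 2 of them passed the test across all genes. This compares with 22.9% of the 17062 tested genes whose Tet2-mutant libraries both lay above all wild-type libraries, and 33.3% that lay below. The test called 15.0% of all genes at an adjusted p under 0.05, 10.6% higher and 4.43% lower in the Tet2-mutant libraries, that is 1801 and 755 genes. With library totals alone in place of TMM the split turned to 1181 higher and 2877 lower. The number of called genes moved strongly with single libraries, to 622, 888 and 856 without wild-type replicate 1, 2 and 3 and to 10862 and 7081 without Tet2-mutant replicate 2 and 3. The 7 log2 fold changes ran from 0.51 to 1.69 with a median of 0.65, beside a median of -0.07 over all tested genes. The separation depended on scaling. With upper-quartile scaling 3 of the 7 genes (mt-Cytb, mt-Nd1 and mt-Nd2) lay apart, and with library totals alone 2 did (mt-Cytb and mt-Nd2), where the log2 fold changes of mt-Co1, mt-Nd4, mt-Nd5 and mt-Nd6 came down to 0.0047, 0.019, 0.075 and 0.14. With Xist class (high or low, as above) as a covariate, which sets the Tet2-mutant libraries against wild-type replicate 3, the log2 fold changes were 1.68 for mt-Nd2 and 1.32 for mt-Cytb, but edgeR called 0 of the 7 genes (adjusted p = 0.232 and 0.265) and 101 of all genes.

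Among the mitochondrial subunits of complex I, which passes electrons from NADH to ubiquinone, mt-Nd2 was the gene called higher. mt-Nd2 (mitochondrial positions 3914 to 4951, plus strand) was at 142 and 115 CPM in replicates 2 and 3 of the Tet2 mutant, against 30.9, 48.6 and 40.2 CPM in replicates 1, 2 and 3 of the wild type. Both Tet2-mutant values were far above the highest wild-type value. Means were 128 ± 18.7 CPM in the Tet2-mutant libraries and 39.9 ± 8.84 CPM in the wild-type libraries (SD, n = 2 and 3), a log2 fold change of 1.69 ± 0.29 (SE, edgeR quasi-likelihood test, adjusted p = 0.0149). The counts behind these values were 1789 and 6244 in the Tet2-mutant libraries and 2305, 4074 and 2460 in the wild-type libraries.

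mt-Nd1, another core subunit of the membrane arm of complex I, missed the threshold by a narrow margin. It was at 464 and 649 CPM in the Tet2-mutant libraries, against 213, 326 and 278 CPM in replicates 1, 2 and 3 of the wild type, with no overlap. Its log2 fold change was 1.03 ± 0.28 (SE, edgeR adjusted p = 0.0508). The DESeq2 Wald test called it higher (adjusted p = 0.0444), as did edgeR without a filter on low counts (adjusted p = 0.0093). The call therefore turned on small changes of setting, and edgeR's adjusted p was 0.0489 with DESeq2 size factors and 0.00915 with Tet2-mutant replicate 2 left out. It was 0.105 with upper-quartile scaling, 0.197 with library totals alone (log2 fold change 0.55), and between 0.069 and 0.124 with any other library left out.

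The other counted complex I subunits did not pass. mt-Nd4 was at 154 and 193 CPM in the Tet2-mutant libraries, against 91.8, 151 and 121 CPM in replicates 1, 2 and 3 of the wild type (log2 fold change 0.51 ± 0.29 SE, edgeR adjusted p = 0.212). Its lower Tet2-mutant value nearly touched its highest wild-type value. mt-Nd5 was at 202 and 190 CPM in the Tet2-mutant libraries, against 108, 158 and 124 CPM in the wild-type libraries (0.59 ± 0.25 SE, edgeR adjusted p = 0.129). mt-Nd6, which is encoded on the other strand from all other protein genes, was at 52.9 and 55.4 CPM in the Tet2-mutant libraries, against 27.8, 47.4 and 28.5 CPM in the wild-type libraries (0.65 ± 0.34 SE, edgeR adjusted p = 0.193). The counting strand is not given in the labels. Reads of mt-Nd6 can therefore not be told apart from RNA of the opposite strand, and its annotated end overlaps that of mt-Nd5.

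mt-Cytb, the cytochrome b of complex III, was also called higher. mt-Cytb (mitochondrial positions 14145 to 15288, plus strand) was at 897 and 1119 CPM in replicates 2 and 3 of the Tet2 mutant, against 321, 474 and 404 CPM in replicates 1, 2 and 3 of the wild type. The Tet2-mutant values lay well clear of the wild-type range, as they did for mt-Nd2. Means were 1008 ± 157 CPM in the Tet2-mutant libraries and 400 ± 76.7 CPM in the wild-type libraries (SD, n = 2 and 3), a log2 fold change of 1.33 ± 0.27 (SE, edgeR adjusted p = 0.0249). The log2 fold change stayed between 0.84 and 1.65 in every setting run. The adjusted p was 0.0626 with library totals alone, 0.0732 without wild-type replicate 1 and 0.0576 without wild-type replicate 3.

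mt-Co1, the catalytic subunit of complex IV (cytochrome c oxidase), was the most counted mitochondrial gene in every library. It was at 1641 and 1695 CPM in the Tet2-mutant libraries, against 883, 1499 and 1119 CPM in replicates 1, 2 and 3 of the wild type. The Tet2-mutant libraries were closely alike, and wild-type replicate 2 came near them. The log2 fold change was 0.52 ± 0.29 (SE, edgeR adjusted p = 0.222). In wild-type replicate 2 each of the 7 protein genes was at its highest wild-type level, and in wild-type replicate 1 at its lowest. No ATP synthase subunit of the mitochondrial genome could be compared.

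**Figure D2:**
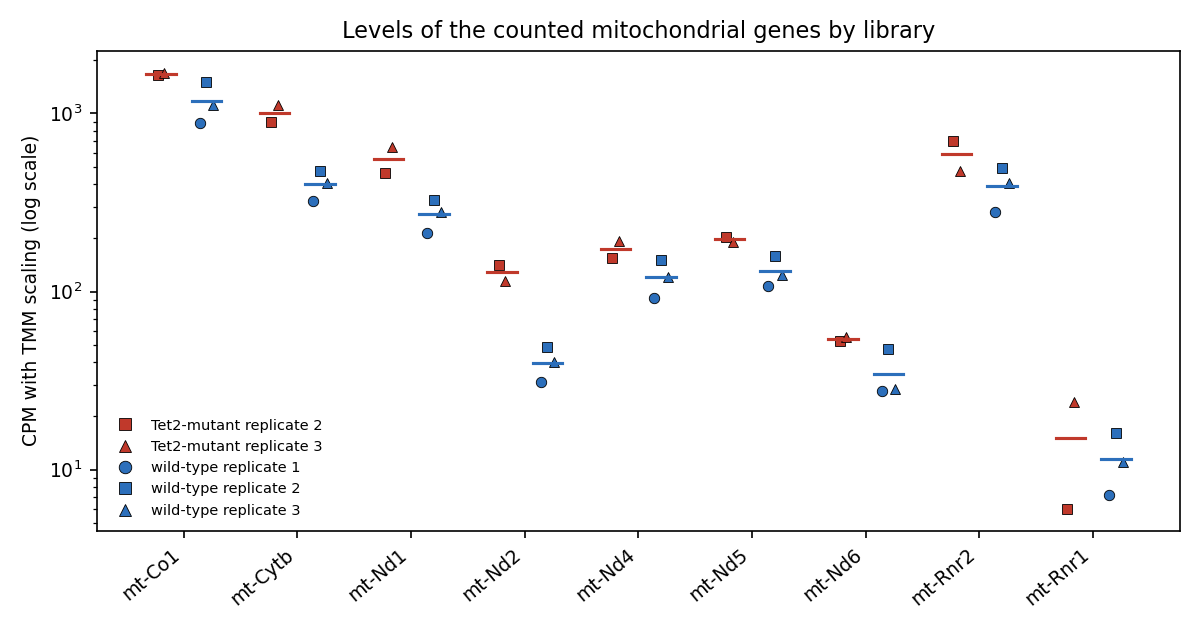
Levels of the 7 counted mitochondrial protein genes and the 2 rRNAs in each library, in TMM-scaled CPM on a log axis, with the Tet2-mutant libraries left of the wild-type libraries for each gene and a bar at each mean. For mt-Nd2 and mt-Cytb the genotypes are widely apart, while for the 2 rRNAs they overlap.

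**Figure D3:**
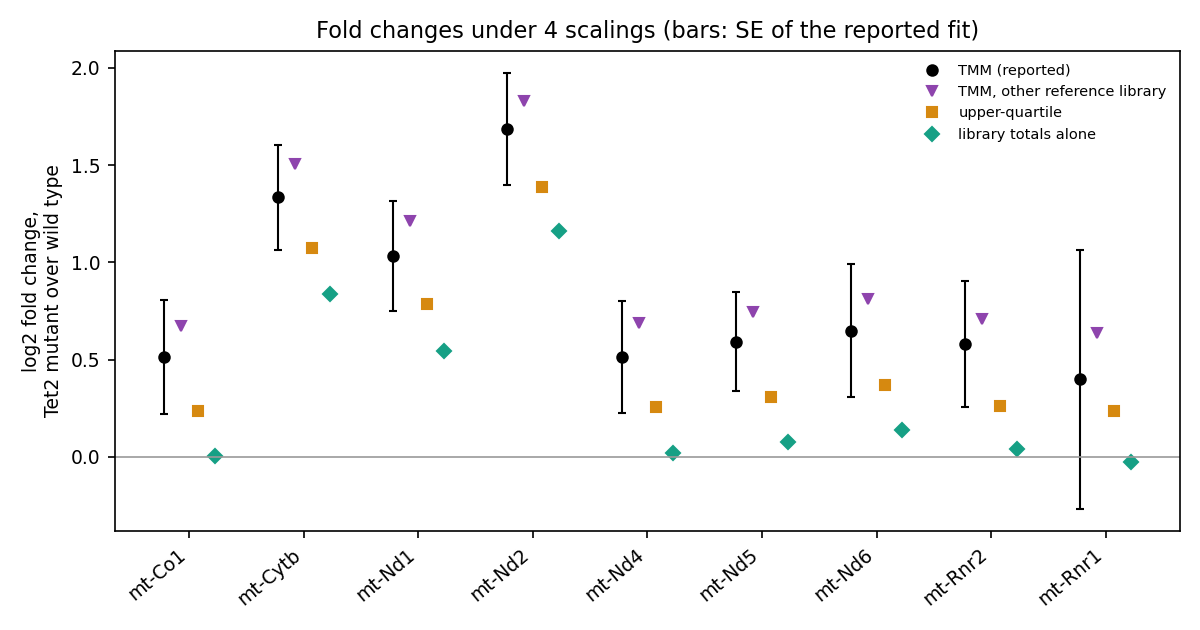
Log2 fold changes (Tet2 mutant over wild type) of the 7 counted mitochondrial protein genes and the 2 rRNAs under 4 scalings. Standard errors are drawn for the reported TMM fit only. The other scalings are TMM with Tet2-mutant replicate 2 as the reference library, upper-quartile scaling and library totals alone. With the reported TMM fit the 7 protein genes lie between 0.51 and 1.69, with mt-Nd2 and mt-Cytb as the called genes. With library totals alone mt-Co1, mt-Nd4 and mt-Nd5 lie at 0.0047, 0.019 and 0.075.

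Library scaling cancels in the make-up of the mitochondrial mRNA counts, that is, in the share each gene took of all counts of mitochondrial protein genes within its library. mt-Cytb took 25.3% and 27.9% in Tet2-mutant replicates 2 and 3, against 19.2%, 17.5% and 19.1% in wild-type replicates 1, 2 and 3. mt-Nd2 took 3.99% and 2.87% in the Tet2-mutant libraries, against 1.84%, 1.80% and 1.90% in the wild-type libraries. For both genes each Tet2-mutant share was above all wild-type shares. mt-Co1 took 46.2% and 42.2% in the Tet2-mutant libraries, against 52.7%, 55.4% and 52.9% in the wild-type libraries, so its share was lower by 9.49 percentage points on average.

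The shares of mt-Nd4 and mt-Nd5 were also lower in both Tet2-mutant libraries. mt-Nd4 took 4.32% and 4.80% in the Tet2-mutant libraries, against 5.48%, 5.58% and 5.73% in the wild-type libraries. mt-Nd5 took 5.70% and 4.74% in the Tet2-mutant libraries, against 6.45%, 5.84% and 5.88% in the wild-type libraries. The shares of mt-Nd1 (13.1% and 16.2% in Tet2-mutant libraries, 12.0% to 13.1% in wild-type libraries) and mt-Nd6 (1.49% and 1.38%, against 1.35% to 1.75%) overlapped. These shares sum to 100% within a library, so that a higher share of one gene lowers the others.

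Ratios between single genes do not have that limit. The counts of mt-Nd2 per count of mt-Nd5, both complex I subunits with few copied bases, were 0.70 and 0.606 in the Tet2-mutant libraries, against 0.286, 0.307 and 0.323 in wild-type replicates 1, 2 and 3. The counts of mt-Cytb per count of mt-Nd5 were 4.43 and 5.89 in the Tet2-mutant libraries, against 2.97, 3.0 and 3.25 in the wild-type libraries. Within the wild-type libraries both ratios were closely alike. The ratio of mt-Nd1 to mt-Nd5 did not overlap either, at 2.29 and 3.41 in the Tet2-mutant libraries and 1.97 to 2.23 in the wild-type libraries. The ratio of mt-Nd4 to mt-Nd5 overlapped, at 0.759 and 1.01 in the Tet2-mutant libraries and 0.850 to 0.975 in the wild-type libraries. So did the ratio of mt-Nd6 to mt-Nd5, at 0.261 and 0.291 in the Tet2-mutant libraries and 0.229 to 0.30 in the wild-type libraries. All these ratios depend on mt-Nd5, whose share was lower in both Tet2-mutant libraries. With 2 libraries against 3, an exact permutation test has 0.1 as its smallest one-sided p, so no p is given for these ratios.

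**Figure D4:**
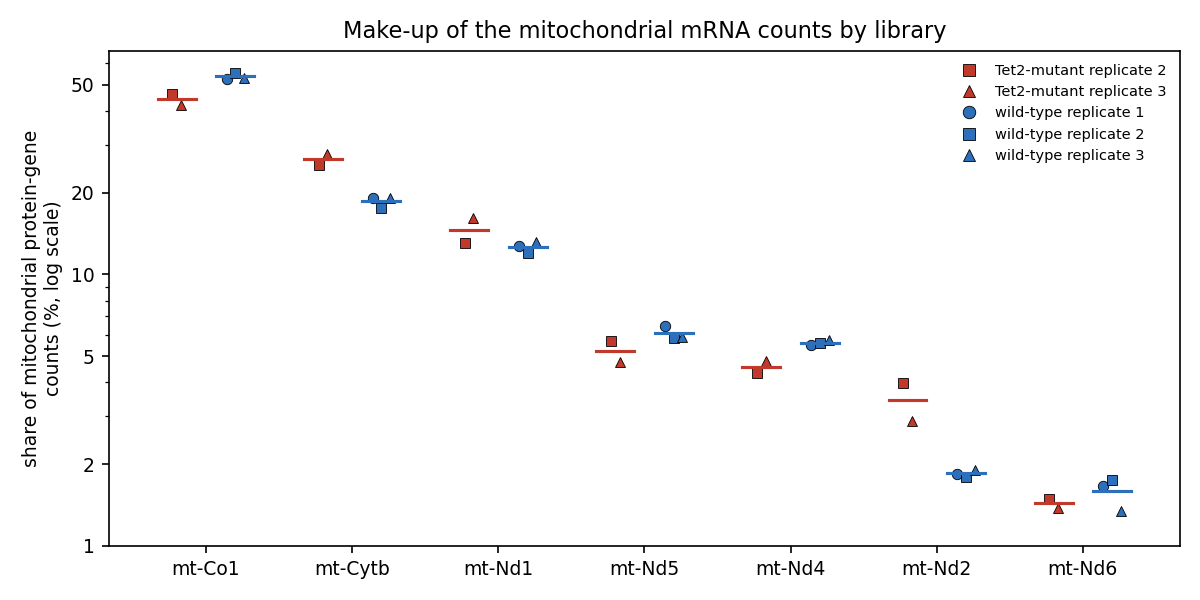
Percent of all counts of mitochondrial protein genes taken by each of the 7 counted genes, per library, with the Tet2-mutant libraries left of the wild-type libraries. Shares of mt-Cytb and mt-Nd2 are higher, and those of mt-Co1, mt-Nd4 and mt-Nd5 lower, in both Tet2-mutant libraries than in any wild-type library.

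Levels can be set side by side between genes only per length. In CPM per kilobase, mt-Co1 came first with mean levels of 1079 in the Tet2-mutant libraries and 755 in the wild-type libraries, mt-Cytb came next with 881 and 350, then mt-Nd1 with 582 and 284 and mt-Rnr2 with 372 and 249 in Tet2-mutant and wild-type libraries. The order of these 4 was the same in both genotypes, and in the Tet2-mutant libraries none of their ranges overlapped. In the wild-type libraries the ranges of mt-Cytb and mt-Nd1, and of mt-Nd1 and mt-Rnr2, did overlap. mt-Nd2 was sixth in the Tet2-mutant libraries at 124 CPM per kilobase, and eighth in the wild-type libraries at 38.4 CPM per kilobase, below mt-Nd5 (108 in Tet2-mutant libraries, 71.4 in wild-type libraries) and mt-Nd6 (104 and 66.6). In the Tet2-mutant libraries mt-Nd4, mt-Nd2, mt-Nd5 and mt-Nd6 lay between 104 and 126 CPM per kilobase, where mt-Nd4 and mt-Nd2 overlapped, as did mt-Nd5 and mt-Nd6. In the wild-type libraries mt-Nd4, mt-Nd5 and mt-Nd6 overlapped, and mt-Nd2 lay below them in each library. The values of mt-Co1 and mt-Nd4 take the full gene length, of which 51.1% and 62.2% of the 50-base stretches also occur in nuclear genes.

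The rRNAs of the mitochondrial ribosome did not separate the genotypes, with 0 of 2 called by edgeR or DESeq2 and 0 at an unadjusted edgeR p under 0.05. mt-Rnr2, the large-subunit rRNA, was at 703 and 475 CPM in replicates 2 and 3 of the Tet2 mutant, against 278, 494 and 408 CPM in replicates 1, 2 and 3 of the wild type (log2 fold change 0.58 ± 0.32 SE, edgeR adjusted p = 0.212). mt-Rnr1, the small-subunit rRNA, was at 6.02 and 23.98 CPM in the Tet2-mutant libraries, against 7.24, 16 and 11.0 CPM in the wild-type libraries (0.40 ± 0.67 SE, edgeR adjusted p = 0.672). For mt-Rnr1 the Tet2-mutant libraries were the lowest and the highest of the 5, and without Tet2-mutant replicate 3 its log2 fold change turned to -0.93. Both rRNAs are cut from the same precursor. The counts of mt-Rnr2 per count of mt-Rnr1 were 117 and 19.8 in the Tet2-mutant libraries and 38.5, 30.9 and 36.9 in the wild-type libraries.

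Other RNAs listed as lacking a poly(A) tail were looked at because the kit limits the capture of such RNAs. The tails themselves were not measured. Of 16 such genes in the files (noncoding RNAs such as Rn7sk, and replication-dependent histones), 9 were tested and 0 were called by edgeR's test, with 6 at an unadjusted p under 0.05 and 3 called lower by DESeq2. Upper-quartile scaling gave 3 lower and library totals alone 4 lower. Without Tet2-mutant replicate 2 edgeR called 7 lower, and without Tet2-mutant replicate 3 it called 3 lower and 1 higher. Their median log2 fold change was -2.14, and for 7 of the 9 both Tet2-mutant libraries lay below all wild-type libraries, beside 33.3% of all tested genes. Summed levels were 152 and 62.4 CPM in replicates 2 and 3 of the Tet2 mutant, against 181, 165 and 144 CPM in replicates 1, 2 and 3 of the wild type. H1f2, a linker histone, was at 84.2 and 39.6 CPM in the Tet2-mutant libraries, against 149, 124 and 104 CPM in the wild-type libraries (edgeR adjusted p = 0.0932). H2bc4, a core histone, went the other way, at 59.7 and 20.5 CPM in the Tet2-mutant libraries and 13.3, 16.3 and 16.8 CPM in the wild-type libraries (edgeR adjusted p = 0.0858). H1f2 and H2bc4 together made up most of the summed level in every library, so the sum says little about the other listed RNAs. The summed level differed between libraries, and its part in the rRNA and tRNA values was not tested.

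The 22 tRNA genes held few counts, 13 and 81 in Tet2-mutant replicates 2 and 3 and 103, 157 and 65 in wild-type replicates 1, 2 and 3. Of these genes 10 were at 0 in all libraries, 5 inside the copied stretch and 5 outside it. Of the 419 counts, 368 fell on the 7 tRNA genes of the minus strand outside the stretch and 51 on the 10 of the plus strand. The tRNAs of the minus strand held 11 and 81 counts in the Tet2-mutant libraries, against 88, 143 and 45 in the wild-type libraries, and those of the plus strand 2 and 0 in the Tet2-mutant libraries, against 15, 14 and 20 in the wild-type libraries. Since the strand of the reads is not given either, a count on a tRNA gene can come from a precursor of either strand. The tRNA with the most counts over the wild-type libraries (mt-Tp) and the one with the most over the Tet2-mutant libraries (mt-Tc) are shown, with the anticodon in capitals (GENCODE M21 transcripts, GRCm38).
mt-Tp, proline tRNA, chrM:15356-15422, minus strand: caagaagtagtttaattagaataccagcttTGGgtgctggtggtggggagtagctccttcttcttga
mt-Tc, cysteine tRNA, chrM:5192-5257, minus strand: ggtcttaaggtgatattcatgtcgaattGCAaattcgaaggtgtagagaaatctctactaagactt

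mt-Tp held 7 and 0 counts in Tet2-mutant replicates 2 and 3, against 45, 95 and 34 in wild-type replicates 1, 2 and 3. The lowest wild-type level of 0.555 CPM was at least 10.02-fold above the level that 3 counts would give in Tet2-mutant replicate 3, but Tet2-mutant replicate 2, the shallowest library, was level with that wild-type library, at 0.555 CPM. mt-Tp did not pass the test (edgeR adjusted p = 0.403). mt-Tc held 1 and 62 counts in the Tet2-mutant libraries, against 4, 9 and 0 in the wild-type libraries, so that Tet2-mutant replicate 3 alone was high. mt-Tn, the asparagine tRNA that neighbours mt-Tc on the same strand, held 0 and 17 counts in the Tet2-mutant libraries, against 4, 4 and 2 in the wild-type libraries.

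mt-Te (glutamate), mt-Tq (glutamine) and mt-Tl1 (leucine) were the other tRNAs with enough counts for the test. mt-Te held 1 and 1 counts in the Tet2-mutant libraries, against 11, 22 and 5 in the wild-type libraries (edgeR adjusted p = 0.172). mt-Tq held 2 and 1, against 22, 12 and 2 (adjusted p = 0.441), and mt-Tl1 held 1 and 0, against 13, 7 and 10 (adjusted p = 0.168), in Tet2-mutant and wild-type libraries by the same edgeR test. With 0 of 4 tested tRNAs called and 0 of 4 at an unadjusted p under 0.05 by edgeR, and 0 called by DESeq2, no difference was detectable at this depth, and the level set by 3 counts was 0.238 CPM in Tet2-mutant replicate 2 against 0.0358 to 0.0554 CPM in the other libraries. Without Tet2-mutant replicate 2, 4 tRNAs were called, mt-Tc and mt-Tn higher and mt-Tl1 and mt-Tp lower, a comparison that rests on Tet2-mutant replicate 3 alone and assumes that it varies like the wild-type libraries. The floors of 3 counts cover counting error only.

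The nuclear genes whose products work with the mitochondrial genome were taken from lists, each read against the 10.6% of tested genes called higher and 4.43% called lower. Of 19 genes for transcription and replication of mitochondrial DNA, 1 was called higher and 0 lower, with a median log2 fold change of 0.40. The called gene was Tefm, which helps the mitochondrial RNA polymerase to elongate. Tefm was at 42.6 and 43.9 CPM in the Tet2-mutant libraries, against 11.5, 14.6 and 14.3 CPM in replicates 1, 2 and 3 of the wild type (log2 fold change 1.68 ± 0.33 SE, edgeR adjusted p = 0.0219). Leaving out any 1 wild-type library took the called genes to 0, and leaving out Tet2-mutant replicate 2 or 3 took them to 10 or 11.

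Of 25 genes for processing and decay of mitochondrial RNA, 3 were called higher and 2 lower, with a median of -0.21. Lrpprc and Slirp, whose proteins form a complex that stabilises mitochondrial mRNAs, moved in opposite directions. Lrpprc was at 13.9 and 16.4 CPM in the Tet2-mutant libraries, against 46.3, 40.8 and 40.9 CPM in the wild-type libraries (-1.49 ± 0.32 SE, edgeR adjusted p = 0.0301). Slirp was at 12.3 and 19.6 CPM in the Tet2-mutant libraries, against 2.35, 3.85 and 3.92 CPM in the wild-type libraries (2.24 ± 0.55 SE, edgeR adjusted p = 0.0407). Hsd17b10, a subunit of the RNase P that cuts the tRNA 5′ ends, was at 243 and 137 CPM in the Tet2-mutant libraries, against 56.8, 71.5 and 65.9 CPM in the wild-type libraries (1.55 ± 0.30 SE, edgeR adjusted p = 0.0222). Ptcd2, known from mice for its part in the processing of the RNA that holds mt-Cytb, was at 83.5 and 147 CPM in the Tet2-mutant libraries, against 38.5, 44.2 and 44.7 CPM in the wild-type libraries (1.44 ± 0.31 SE, edgeR adjusted p = 0.0296). For each of these 4 genes, which were picked for the smallest p, the genotypes did not overlap. Among the 25 listed genes, both Tet2-mutant libraries lay above all wild-type libraries for 6 and below them for 10. Over all tested genes the shares were 22.9% above and 33.3% below. The other gene called lower was Tbrg4, a stabiliser of some mitochondrial mRNAs (log2 fold change -1.46, edgeR adjusted p = 0.0486). The 5 calls became 0, 1 and 1 without wild-type replicate 1, 2 and 3, and 10 and 18 without Tet2-mutant replicate 2 and 3.

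Of 15 mitochondrial translation factors, 0 were called in either direction by edgeR or DESeq2, with 2 at an unadjusted edgeR p under 0.05 (median 0.09). The 2 with the smallest p were Gfm2, a ribosome recycling factor at 82.2 and 30.2 CPM in the Tet2-mutant libraries and 24.2 to 26.4 CPM in the wild-type libraries, and Ptcd3, a protein of the small ribosomal subunit at 60.5 and 50.1 CPM in the Tet2-mutant libraries and 81.3 to 90.3 CPM in the wild-type libraries (edgeR adjusted p = 0.1004 and 0.113). Of 10 regulators of mitochondrial biogenesis, 9 were tested and 0 called by edgeR, with 1 at an unadjusted p under 0.05 and 1 called lower by DESeq2 (median -0.33). Ppargc1a, a coactivator that drives biogenesis, held 0 counts in both Tet2-mutant libraries, against 32, 31 and 3 counts in wild-type replicates 1, 2 and 3 (edgeR adjusted p = 0.0754). Gabpa, a factor that binds promoters of respiratory genes, was at 29.9 and 39.2 CPM in the Tet2-mutant libraries, against 48.8 to 51.3 CPM in the wild-type libraries (edgeR adjusted p = 0.212). Without Tet2-mutant replicate 2 and 3, in turn, 3 and 9 translation factors and 2 and 1 regulators were called.

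Of 71 nuclear subunits of complexes I, III and IV and ATP synthase, 25 were called higher and 0 lower, with a median log2 fold change of 0.95 beside 0.65 for the 7 mitochondrial protein genes. The call was made for 7 higher and 1 lower with library totals alone, for 4, 12 and 7 genes without wild-type replicate 1, 2 and 3, and for 35 and 47 without Tet2-mutant replicate 2 and 3. By complex, 16 of 36 were called higher for complex I (median 1.01), 1 of 9 for complex III (0.71), 4 of 11 for complex IV (1.03) and 4 of 15 for ATP synthase (0.73). The called genes outside complex I were Uqcr10 of complex III, Cox5a, Cox5b, Cox6a1 and Cox7a2 of complex IV, and Atp5j, Atp5j2, Atp5k and Atp5o of ATP synthase, with log2 fold changes between 0.95 (Atp5o) and 1.79 (Atp5k). The 4 complex I subunits Ndufa7, Ndufs3, Ndufs8 and Ndufc1 had the smallest p, with log2 fold changes of 1.42, 1.63, 1.49 and 1.74. Ndufa7, for example, was at 108 and 116 CPM in the Tet2-mutant libraries, against 35.1, 46.6 and 44.0 CPM in the wild-type libraries (edgeR adjusted p = 0.0178). Complex II has nuclear subunits only, and 1 of its 4 genes was called higher, the iron-sulphur subunit Sdhb (log2 fold change 1.42, edgeR adjusted p = 0.0209).

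Among the nuclear-encoded proteins of the mitochondrial ribosome, 23 of 78 were called higher and 0 lower, with a median log2 fold change of 0.94. Library totals alone gave 7 higher and 2 lower, and leaving out 1 library gave 4, 8 and 7 calls without wild-type replicate 1, 2 and 3 and 52 and 48 without Tet2-mutant replicate 2 and 3. Mrpl42, Mrps34, Mrpl21 and Mrpl32 had the smallest p, with log2 fold changes of 1.85, 1.89, 1.89 and 1.80. Mrpl42 was at 166 and 211 CPM in the Tet2-mutant libraries, against 43.1, 58.9 and 55.2 CPM in the wild-type libraries (edgeR adjusted p = 0.0073).

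Ratios of summed counts do not depend on library scaling. Mitochondrial protein counts per count of nuclear respiratory subunits were 0.229 and 0.325 in the Tet2-mutant libraries, against 0.227, 0.260 and 0.209 in wild-type replicates 1, 2 and 3, and the genotypes overlapped. Per count of mitochondrial ribosomal proteins they were 0.516 and 0.677 in the Tet2-mutant libraries and 0.592 to 0.719 in the wild-type libraries, again with overlap. The rRNA counts per count of mitochondrial ribosomal proteins were 0.103 and 0.0841 in the Tet2-mutant libraries, against 0.107, 0.136 and 0.117 in the wild-type libraries, so that both Tet2-mutant values lay below all wild-type values, though Tet2-mutant replicate 2 only just.

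**Figure D5:**
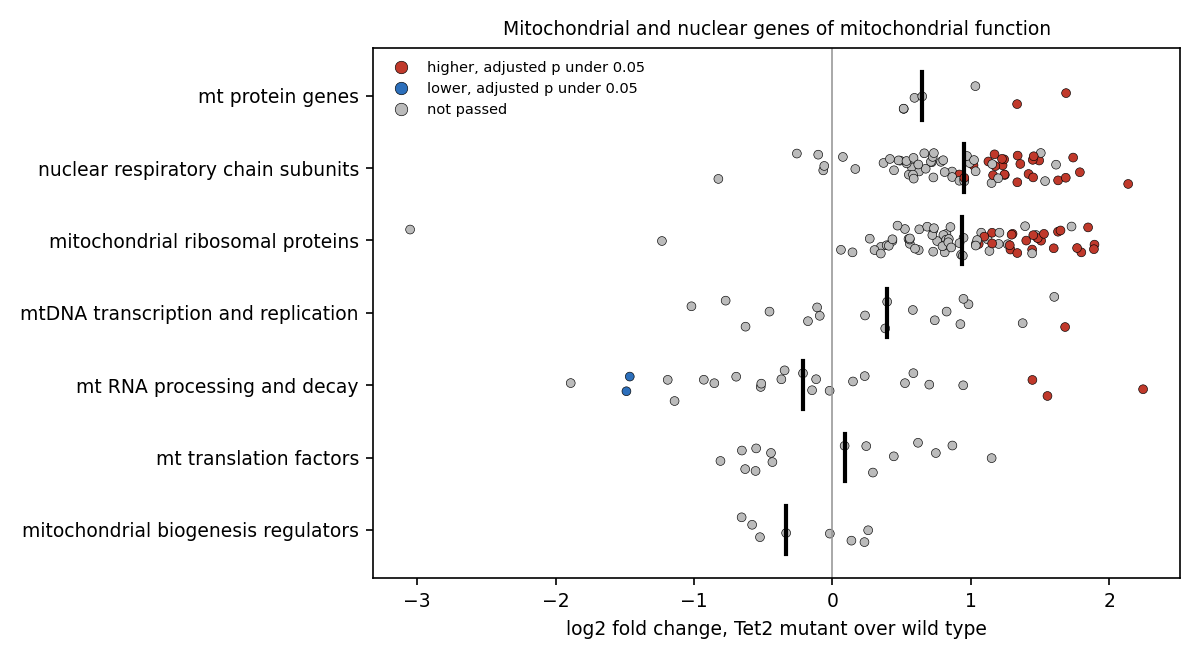
Log2 fold changes (Tet2 mutant over wild type) of the tested mitochondrial protein genes and of the nuclear gene lists, 1 point per gene with a line at each median. Medians are 0.65 for the mitochondrial protein genes, 0.95 for the nuclear respiratory subunits and 0.94 for the mitochondrial ribosomal proteins, and Ppargc1a, at 0 counts in both Tet2-mutant libraries, is not drawn.

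Markers of several cell types moved with genotype. The calls of markers, here and below, stand beside 10.6% of all tested genes called higher and 4.43% called lower. All 10 macrophage markers were called higher, with summed levels of 9669 and 8578 CPM in replicates 2 and 3 of the Tet2 mutant against 703 to 843 CPM in the wild-type libraries. For T cells 6 of 9 markers were called higher (1188 and 967 CPM in Tet2-mutant libraries, 109 to 205 CPM in wild-type libraries), and for B cells 3 of 9, namely Ms4a1, Cd79a and Cd79b (6470 and 18625 CPM, against 1170 to 5223 CPM). For pancreatic acinar cells 17 of 18 tested markers were called higher (954 and 2237 CPM in Tet2-mutant libraries, 43.7 to 59.9 CPM in wild-type libraries), with 1 of the 20 listed at 0 in all libraries. Of 10 monocyte markers, Csf1r, Fcgr1 and Nr4a1 were called higher and Itgam lower.

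Markers of granulocytes and red cells differed between the Tet2-mutant libraries. For 7 of the 12 neutrophil markers both Tet2-mutant libraries lay below all wild-type libraries, beside 33.3% of all tested genes. Mpo, for example, the myeloperoxidase of granules, was at 1963 and 207 CPM in the Tet2-mutant libraries and 3923 to 6183 CPM in the wild-type libraries. edgeR called 0 of the 12 (4 at an unadjusted p under 0.05), 5 lower with upper-quartile scaling and 7 lower with library totals alone, and DESeq2 called 3 lower. The markers summed to 54721 and 24017 CPM in replicates 2 and 3 of the Tet2 mutant, against 49496 to 61223 CPM in the wild-type libraries. The 10 erythroid markers, of which Epor was called lower, summed to 14552 and 2106 CPM in the Tet2-mutant libraries, against 6591 to 17041 CPM in the wild-type libraries. Without Tet2-mutant replicate 2, 11 neutrophil and 10 erythroid markers were called lower, and the 3 B cell calls were lost without wild-type replicate 1, wild-type replicate 3 or Tet2-mutant replicate 3. The part of the cell make-up in the mitochondrial levels was not tested.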

How the data were processed

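Counts per gene were deposited by the authors as whole numbers, 1 file for each of the 5 libraries. Per the labels' protocols, a SMARTer mRNA-Seq kit turned total RNA into libraries. Trimmomatic, STAR and the build mm10 are named in the submitters' processing notes, without versions. The sources used here do not give the read counter, its annotation, its strand setting or its treatment of reads with several alignments. No molecular identifiers are named, so SD, SE and floors treat amplified reads as counts.

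Tools were edgeR 4.0.16 and, as an alternative, DESeq2 1.42.0, in R 4.3.3. edgeR's filterByExpr kept 17062 genes, among them 13 of the 37 mitochondrial genes (7 protein, 2 rRNA and 4 tRNA genes). The other 24 were not tested, and 14 of these were at 0 in all libraries. After TMM scaling, edgeR's quasi-likelihood F-test compared Tet2 mutant with wild type, with Benjamini-Hochberg adjustment over all 17062 genes and a threshold of 0.05, and the test was checked on simulated data. An SE is the size of the log2 fold change over the root of the test's F value. The biological coefficient of variation was 0.507. A count of 3 was taken as the floor.

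Nuclear copies were sought as stretches of 50 bases, on either strand, in the GENCODE M21 transcripts, which cover annotated genes only. Anticodons were located as the centre of a loop of 7 bases closed by 5 base pairs. The mitochondrial genes and the gene lists were chosen with earlier results of these data known. Named were all mitochondrial genes and Tet2. For each pathway list, the 4 called genes with the smallest p were named (2 with the smallest unadjusted p where none was called). By abundance, genes were named only from the monocyte markers and the RNAs without a poly(A) tail. Copies were named from the annotation. Other names (Rn7sk, Mpo, Xist, Ddx3y, Tbrg4, the called respiratory subunits outside complex I and the called markers) were chosen after their values were seen. Alternatives were DESeq2, other scalings and filters, leaving out each library, the replicate block and, added after the data were seen, Xist class (1 CPM or more, or less) as a covariate.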

Additional observations from a re-analysis of the deposited data

How the results depend on the processing

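The 7 protein genes kept positive log2 fold changes in every other setting run, but with library totals alone mt-Co1, mt-Nd4 and mt-Nd5 were at 0.0047, 0.019 and 0.075. Of 185 alternative values for tested members, 167 kept direction and call, 7 lost the call, 7 gained it and 4 reversed. The reversals were of mt-Tq, at 0.83 with Xist class as a covariate (chosen after the data were seen), and of mt-Rnr1, at -0.025 with library totals alone, -0.14 with the replicate block and -0.93 without Tet2-mutant replicate 3 (range -0.93 to 1.07 with a library left out), and the cause was not tested. Called protein genes numbered 2, and 1 with library totals alone, 0 with the replicate block and 1 to 3 with a library left out. Called protein genes numbered 3 by DESeq2, with DESeq2 size factors in edgeR, without a filter and with the other TMM reference described below. With Xist class as a covariate edgeR called 101 genes. Of these, 0 were mitochondrial protein, rRNA or tRNA genes and 0 were in the lists of mitochondrial function below. Called rRNAs stayed at 0 in each setting run. Called tRNAs numbered 0, with 1 without a filter (mt-Tc) and 0 to 4 with a library left out. Called genes overall numbered 2556, with 4058 by library totals alone (1181 higher and 2877 lower), 4557 without a filter, 984 with the replicate block, 5523 by DESeq2 and 622 to 10862 with a library left out. Totals alone moved the median fold change of all genes by -0.50, upper-quartile scaling by -0.27, and TMM with Tet2-mutant replicate 2 as its reference library, chosen after the data were seen, by 0.16. For mitochondrial DNA transcription and replication, with 1 called, 2 were called with upper-quartile scaling and by DESeq2, 3 with totals alone, without a filter and with the other TMM reference, 0 with the replicate block and 0 to 11 with a library left out. For RNA processing and decay, with 5 called, it was 3 with upper-quartile scaling, 0 with the replicate block, 8 by DESeq2 and 0 to 18 with a library left out. For translation factors, with 0 called, it was 1 with upper-quartile scaling, 2 with totals alone and 0 to 9 with a library left out. For biogenesis regulators, with 0 called, it was 1 with totals alone, without a filter and by DESeq2, and 0 to 2 with a library left out. For nuclear respiratory subunits, with 25 called, it was 8 with totals alone, 1 with the replicate block, 38 with the other TMM reference and 4 to 47 with a library left out. For mitochondrial ribosomal proteins, with 23 called, these settings (tried after the data were seen) gave 9, 1, 36 and 4 to 52, and DESeq2 gave 36. Under the replicate block mt-Cytb was at 1.19 (adjusted p = 0.0822) and mt-Nd2 at 1.53 (adjusted p = 0.0519), both from edgeR. Replicates 2 and 3 share only a number, with correlations of -0.03 and -0.02 between same-numbered libraries after removal of the genotype means. The ratio of mitochondrial protein shares (1.23) was 1.03 to 1.44 with a library left out. The mt-Cytb share was higher by 7.95 percentage points, by 7.41 without mt-Co1 and by 6.65 to 9.26 with a library left out. Without mt-Co1 the share of mt-Nd1 turned to -1.14 percentage points, since mt-Co1 no longer fills the total, and those of mt-Nd4, mt-Nd5 and mt-Nd6 moved to -3.92, -3.69 and -0.86, against -1.04, -0.84 and -0.15 with it. Tet2-mutant replicate 2 had the fewest counts and limits the tRNA values most.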
